A study of Mus musculus with 4 samples.

Results

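The desmosome genes described here are Dsg2, Dsg3, Dsc2, Dsc3, Jup, Pkp1, Pkp2, Pkp3, Dsp and Ppl. They were chosen by gene symbol, with earlier results of these data known, and are 10 of the 24442 genes in the count table. RNA was sequenced from mammary cells of 5-week-old female mice that carry the Lgr6-eGFP-CreErt2 allele, which places a green fluorescent reporter and an inducible Cre recombinase under control of the Lgr6 gene. Glands were digested to single cells, and lineage-negative cells were sorted for Lgr6, with 2 libraries from Lgr6-positive and 2 from Lgr6-negative cells. The labels name neither the lineage markers nor how the Lgr6-negative cells were gated. Both populations came from mice with this allele, and the labels record no treatment. They do not say whether replicates were separate animals or pools, so p-values reflect the spread among these 4 libraries, which may be technical.

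A desmosome is a spot-like junction that ties the keratin filaments of neighbouring epithelial cells together. Desmogleins (Dsg genes) and desmocollins (Dsc genes), which are cadherins, bind each other across the gap between the cells. Inside the cell they hold plakoglobin (Jup) and plakophilins (Pkp genes), which are armadillo-repeat proteins. These in turn hold desmoplakin (Dsp), the plakin that grips keratin, while periplakin (Ppl) is a related plakin of the cell cortex. In the mammary gland, desmosomes join luminal cells to each other and to the basal layer. Dsg2, Dsc2 and Pkp2 are known from simple epithelia, and Dsg3, Dsc3 and Pkp1 from stratified epithelia and basal cells.

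The libraries held between 6819127 and 7167465 counts. Levels are given as CPM, that is, counts divided by a library size corrected by the TMM method, and 3 counts correspond to 0.368 to 0.533 CPM. Lgr6 was at 21.1 and 83.0 CPM where the label was positive and at 0.468 and 1.78 CPM where it was negative, so its level followed the labels, although its adjusted p of 0.0510 in edgeR missed the threshold of 0.05. The populations also differed in their cell types. Of 12 leukocyte markers, 10 were called lower in Lgr6-positive cells by edgeR, as were 4.57% of all tested genes. Their summed level was 1995 and 2407 CPM against 30716 and 35677 CPM. Ptprc, the leukocyte marker CD45, was at 48.3 and 23.4 CPM in Lgr6-positive and 1742 and 1190 CPM in Lgr6-negative libraries, although the protocol describes a lineage-negative sort. Of 11 luminal epithelial markers, 10 were called higher in Lgr6-positive cells by edgeR, as were 4.49% of all tested genes. Their summed level was 4346 and 4178 CPM against 239 and 221 CPM. In such bulk samples, fewer cells of a type and less RNA per cell cannot be told apart, and the part of this difference in the results below was not tested.

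Transcripts of nearly all parts of the desmosome were more abundant in Lgr6-positive than in Lgr6-negative cells. The desmogleins Dsg2 and Dsg3, the desmocollins Dsc2 and Dsc3, plakoglobin, plakophilin 1, desmoplakin and periplakin were all higher, at log2 fold changes from 2.02 (Jup) to 9.18 (Dsg3). Pkp2 and Pkp3 did not pass. All 10 genes passed the filter on low counts, and 8 were called higher and 0 lower by edgeR's quasi-likelihood test (Benjamini-Hochberg adjusted p under 0.05 over all 11661 tested genes). Of all tested genes, 4.49% were higher and 4.57% lower. At an unadjusted p under 0.05, 8 of the 10 were higher and 0 lower, and DESeq2 called 9 higher and limma-voom 7, both with 0 lower, where these tools called 12.3% and 6.47% of all tested genes higher. In 9 of the 10, each Lgr6-positive library lay above each Lgr6-negative library, as in 30.0% of all tested genes. The median log2 fold change of the 10 was 4.46, against 0.10 over all tested genes. Of these genes, 6 had fewer than 10 counts in at least 1 Lgr6-negative library and passed the filter through their Lgr6-positive libraries, so these counts and the median are descriptions.

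**Figure D1:**
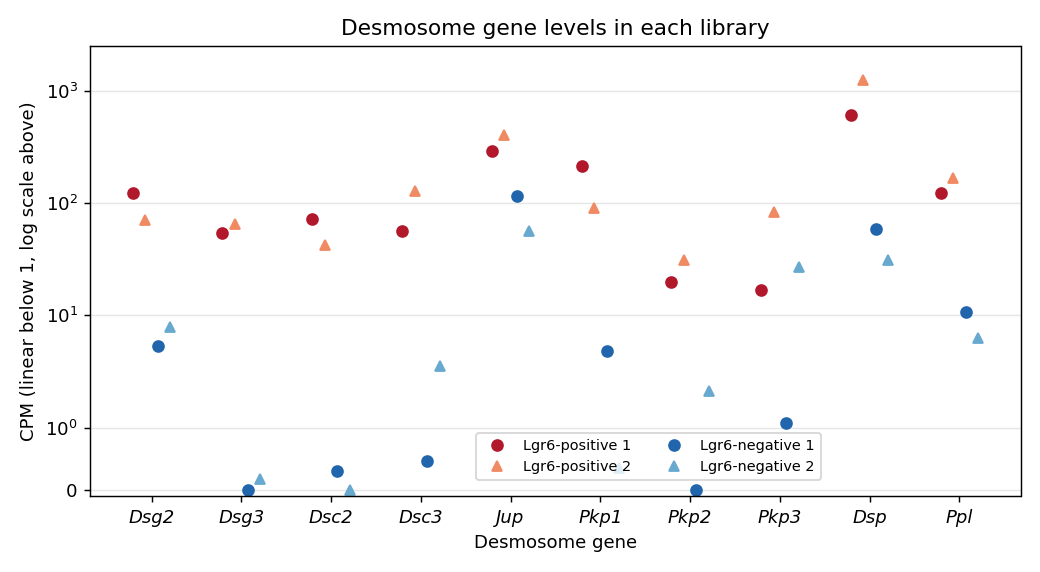
CPM of each desmosome gene (horizontal axis) in the 4 libraries, on a vertical axis that is linear below 1 CPM and logarithmic above; circles are replicate 1 and triangles replicate 2, in red shades for Lgr6-positive and blue shades for Lgr6-negative. The colours are separate for every gene except Pkp3, for which the Lgr6-negative triangle (26.7 CPM) lies above the Lgr6-positive circle (16.8 CPM).

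The start regions of Dsp and Jup, both called higher in Lgr6-positive cells, are shown because these 2 of the 10 genes were matched by symbol in the RefSeq promoter table on GRCm38.p6. Each is the 250 bases before the annotated start, with capitals marking GC boxes (GGGCGG) and CACCC boxes (CCACCC) on either strand. The Dsp window is on the plus strand at chr13:38151044-38151293 and the Jup window on the minus strand at chr11:100397791-100398040. An exon of the gene model Gm10129 reaches into the Dsp window. The Jup window does not adjoin the gene span given below, which comes from GENCODE and ends at base 100397763.
Dsp: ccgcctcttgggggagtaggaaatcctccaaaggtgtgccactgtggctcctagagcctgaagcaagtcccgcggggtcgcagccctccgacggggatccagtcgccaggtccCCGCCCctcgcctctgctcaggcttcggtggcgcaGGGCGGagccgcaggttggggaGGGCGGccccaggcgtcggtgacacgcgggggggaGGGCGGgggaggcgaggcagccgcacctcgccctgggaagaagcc
Jup: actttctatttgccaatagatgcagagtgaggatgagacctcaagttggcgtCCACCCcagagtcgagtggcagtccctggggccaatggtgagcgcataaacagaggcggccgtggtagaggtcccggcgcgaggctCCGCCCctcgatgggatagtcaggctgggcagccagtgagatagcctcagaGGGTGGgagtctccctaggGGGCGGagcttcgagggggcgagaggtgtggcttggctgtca
The Dsp window held 4 GC boxes and 0 CACCC boxes, at a GC content of 72.4%. The Jup window held 2 of each, at a GC content of 62.0%. Among 32851 start regions of the same length, 32.7% held a GC box and 28.1% a CACCC box, and the median GC content was 52.4%. An E-box (CANNTG, held by 66.2% of all windows), an AP-1 motif (TGANTCA, 6.75%), a grainyhead core (AACNNGTT, 3.64%) and a TATA box (TATAAA, 12.4%) were searched on both strands and matched in neither window. The matches describe letters in these windows and show no binding.

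The 4 desmosomal cadherin genes lie in 1 cluster on chromosome 18 of GRCm38. Dsc3 spans bases 19960930 to 20002351 and Dsc2 bases 20030633 to 20059554 on the minus strand. Dsg3 spans bases 20510274 to 20547459 and Dsg2 bases 20558074 to 20604521 on the plus strand. All 4 were called higher in Lgr6-positive cells by edgeR, as were 4.49% of all tested genes. Dsc1, Dsg1c, Dsg1a, Dsg1b and Dsg4 lie between Dsc2 and Dsg3 and were not called. The result therefore does not cover the whole cluster.

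Dsg2, the desmoglein of simple epithelia, was at 123 and 70.6 CPM in the Lgr6-positive libraries and 5.30 and 7.82 CPM in the Lgr6-negative libraries. Its libraries did not overlap, with the lowest Lgr6-positive value 9.02 times the highest Lgr6-negative value. The log2 fold change was 3.88 (SE 0.91, edgeR adjusted p = 0.0321). Of 13 alternatives, 9 kept all 4 libraries and 4 left out 1 library. A fit without 1 library takes the spread from the other population's pair and assumes that the lone library varies like it, so passing such a fit says nothing about stability. Leaving out Lgr6-positive replicate 1 (adjusted p = 0.0792) or Lgr6-negative replicate 1 (0.0503) ended this call, as did limma-voom (0.0879, the top of a range from 2.07e-05 over the 13). The antisense gene model Gm16090 covers 3.99% of the exonic bases of Dsg2, and the strand setting of the counting is not given in the sources used here.

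Dsg3, the desmoglein known from basal layers of stratified epithelia, was counted 441 and 515 times in Lgr6-positive libraries against 0 and 1 times in Lgr6-negative libraries. The Lgr6-positive levels of 54.1 and 65.3 CPM were close to each other, and the Lgr6-negative libraries were below the level of 3 counts. The ratio of the pooled levels was 717, with a 95% counting interval from 128 to 28349 (exact binomial), which covers counting error only. The fitted log2 fold change of 9.18 (SE 1.65, edgeR adjusted p = 0.0111) depends on the prior count of the fit, and was 8.25 without Lgr6-negative replicate 1 and 11.80 without Lgr6-negative replicate 2.

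Dsc2, the widely expressed desmocollin, was counted 584 and 336 times in Lgr6-positive libraries against 2 and 0 times in Lgr6-negative libraries. Its Lgr6-positive level was 71.6 CPM in replicate 1 and 42.6 CPM in replicate 2. The ratio was 345, with a 95% counting interval from 95.2 to 2853, and the fitted log2 fold change was 8.31 (SE 1.66, edgeR adjusted p = 0.0167). It was 7.42 without Lgr6-negative replicate 2 and 11.68 without Lgr6-negative replicate 1. Dsc3, the desmocollin of basal cells, was at 56.5 and 128 CPM against 0.468 and 3.56 CPM. Replicates were spread in both populations, but each Lgr6-positive library was at least 15.9 times the highest Lgr6-negative one, at a log2 fold change of 5.52 (SE 1.27, edgeR adjusted p = 0.0302). The log2 fold change of Dsc3 was 4.68 without Lgr6-negative replicate 1, 7.56 without Lgr6-negative replicate 2 and 4.78 without Lgr6-positive replicate 2. It passed under the 9 alternatives that kept all libraries, with adjusted p up to 0.0494 (limma-voom).

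Further cadherins of the family were read from the table beside these members. The desmoglein 1 genes are near-identical copies known from the upper layers of the skin, and their counts were partly fractional, so they may be shared between copies. In Lgr6-positive libraries Dsg1b was counted 95 and 154 times and Dsg1a 55 and 17 times. Neither was counted in Lgr6-negative cells. Their mean Lgr6-positive levels were 31.1 times (Dsg1b) and 8.89 times (Dsg1a) the mean level that 3 counts make in the Lgr6-negative libraries. Single libraries stood lower than this, with Dsg1a at 2.15 CPM in Lgr6-positive replicate 2. Neither passed the test (adjusted p = 0.0667 and 0.125). Dsg1c had 2 counts in all, Dsc1 had 1, and Dsg4 had none in any library.

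Plakoglobin, encoded by Jup, is shared by desmosomes and adherens junctions and is a close relative of beta-catenin. The gene spans bases 100368958 to 100397763 of chromosome 11 on the minus strand. It was at 290.1 and 404 CPM in the Lgr6-positive libraries and 115.8 and 55.8 CPM in the Lgr6-negative libraries. The lowest Lgr6-positive value was 2.51 times the highest Lgr6-negative value, the narrowest gap of the 9 genes whose libraries did not overlap. The log2 fold change was 2.02 (SE 0.51, edgeR adjusted p = 0.0427), and leaving out Lgr6-negative replicate 2 ended the call (1.57, adjusted p = 0.130), while the value was 2.62 without Lgr6-negative replicate 1. Per kilobase of exon, Jup had the highest level of the 10 genes in each Lgr6-negative library, at 18.0 and 8.67 CPM, where Dsp was at 6.06 and 3.22.

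The plakophilins, which cluster cadherins and desmoplakin at the plaque, differed in how well replicates matched. Pkp1, on chromosome 1 from base 135871395 to 135919207, was at 212 and 90.7 CPM in Lgr6-positive and 4.84 and 0.355 CPM in Lgr6-negative libraries. The populations did not overlap, and Pkp1 was higher with a log2 fold change of 5.84 (SE 1.21, edgeR adjusted p = 0.0197). The value was 8.65 without Lgr6-negative replicate 1, 4.94 without Lgr6-negative replicate 2 and 5.10 without Lgr6-positive replicate 1. Pkp1 passed under the 9 alternatives that kept all libraries, with adjusted p up to 0.0428 (limma-voom).

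Pkp2, on chromosome 16 from base 16213318 to 16272712, is the plakophilin of simple epithelia and heart muscle. It was at 19.9 and 30.9 CPM in Lgr6-positive and 0 and 2.13 CPM in Lgr6-negative libraries. The populations did not overlap, but its log2 fold change of 4.56 (SE 2.07) had an adjusted p of 0.213 in edgeR. DESeq2 gave 0.0410, within a range of 0.0410 to 0.444 over the alternatives. The log2 fold change was 3.55 without Lgr6-negative replicate 1 and 10.57 without Lgr6-negative replicate 2, where the remaining Lgr6-negative library had no counts. Of 6 heart muscle markers, 5 had no counts in any library, and Tnni3 was counted 2 and 1 times in Lgr6-positive libraries.

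Pkp3, on chromosome 7 from base 141078218 to 141090510, is found in most desmosome-bearing epithelia. It was at 16.8 and 83.1 CPM in Lgr6-positive and 1.09 and 26.7 CPM in Lgr6-negative libraries. In both populations replicate 2 was far above replicate 1, and the populations overlapped. The log2 fold change of 1.85 (SE 1.48, edgeR adjusted p = 0.522) ran from 0.25 without Lgr6-positive replicate 2 to 5.49 without Lgr6-negative replicate 2, and passed under none of the 13 alternatives. Pkp4, a relative found at cell contacts of many tissues, was at 229 and 286 CPM against 108 and 35.6 CPM (log2 fold change 1.84, adjusted p = 0.0982).

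Desmoplakin, encoded by Dsp on chromosome 13 from base 38151294 to 38198577, links the plaque to keratin filaments. It was at 605 and 1239 CPM in the Lgr6-positive libraries and 58.5 and 31.1 CPM in the Lgr6-negative libraries. Replicate 2 of the Lgr6-positive population was 2.05 times replicate 1, and the lowest Lgr6-positive value was 10.3 times the highest Lgr6-negative value. Dsp had the lowest adjusted p of the 10 genes, at a log2 fold change of 4.36 (SE 0.52, edgeR adjusted p = 0.00194). It passed under the 9 alternatives that kept all libraries, and its log2 fold change was 3.73 without Lgr6-positive replicate 2 and 4.88 without Lgr6-negative replicate 1. The minus-strand gene model Gm10129 covers 5.17% of its exonic bases.

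Periplakin, encoded by Ppl on chromosome 16 from base 5086291 to 5132421, was at 122.5 and 167 CPM in Lgr6-positive and 10.6 and 6.22 CPM in Lgr6-negative libraries. The populations did not overlap, at a log2 fold change of 4.10 (SE 0.75, edgeR adjusted p = 0.0122). Evpl, which encodes the partner plakin envoplakin, was at 10.1 and 16.2 CPM against 0 and 2.67 CPM and did not pass (log2 fold change 3.29, adjusted p = 0.429).

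**Figure D2:**
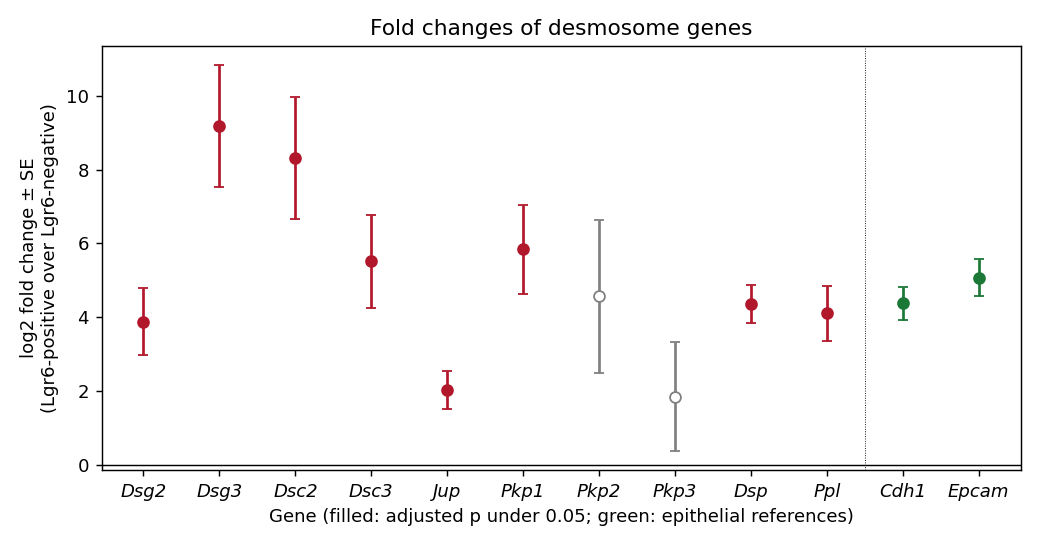
Log2 fold change of Lgr6-positive over Lgr6-negative cells (vertical axis) with its standard error (bars) for the desmosome genes and, right of the dotted line, for Cdh1 and Epcam; filled points passed the adjusted p threshold. The members range from 1.85 (Pkp3, open) to 9.18 (Dsg3), with Dsp at 4.36 beside 4.37 for Cdh1.

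Levels of different genes were compared per length, as CPM per kilobase of annotated exons (mean ± SD, n = 2 libraries). In Lgr6-positive cells Dsp was at 95.4 ± 46.4 and Jup at 54.0 ± 12.6, followed by Pkp1 at 30.1 ± 17.1, Ppl at 21.0 ± 4.58 and Dsc3 at 17.1 ± 9.33. Pkp3 (13.8 ± 13.0), Dsg2 (11.7 ± 4.50), Dsc2 (10.8 ± 3.89), Dsg3 (8.55 ± 1.13) and Pkp2 (4.74 ± 1.46) followed. Among the 9 neighbouring pairs in this order, only Jup over Pkp1 and Dsg3 over Pkp2 had libraries that did not overlap. With the length of the longest annotated transcript in place of all exons, an alternative added after the data were seen, Jup (108 CPM per kilobase) stood above Dsp (96.1). The order of Dsp and Jup therefore depends on the transcript length assumed, while the other genes kept their places in Lgr6-positive cells.

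By role, the 4 cadherins together made up 21.0% and 15.9% of the summed CPM per kilobase of the 10 genes in the Lgr6-positive libraries and 2.85% and 7.32% in the Lgr6-negative libraries. Desmoplakin made up 28.1% and 41.1% against 21.9% and 14.5%. Plakoglobin made up 20.2% and 20.2% against 65.1% and 38.9%. So the cadherin share was higher and the plakoglobin share lower in each Lgr6-positive library than in either Lgr6-negative library, also with the longest transcript as length (31.5% and 31.8% against 77.8% and 51.8% for plakoglobin). With 2 libraries per population no exact permutation test can go below p = 0.333, so these shares are given without a test. The Lgr6-negative shares rest on 1262 and 753 counts for all 10 genes.

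Shares within a paralogue group do not depend on how libraries are scaled. Of the Dsg2 and Dsg3 counts, Dsg2 took 69.5% (95% exact binomial interval 67.1 to 71.9%) and 52.0% (48.9 to 55.0%) in the Lgr6-positive libraries. In the Lgr6-negative libraries Dsg2 took 34 of 34 counts (interval from 89.7%) and 44 of 45 counts (97.8%, 88.2 to 99.9%). The Dsg2 share was thus lower in each Lgr6-positive library than in either Lgr6-negative library, without a test. The Lgr6-positive replicates also differed from each other beyond counting error, and Dsg3 passed the filter on low counts only through the Lgr6-positive libraries. Per length, it was 65.8% and 47.7% against 100% and 97.4%.

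The desmocollin pair did not show a split by population. Of the Dsc2 and Dsc3 counts, Dsc2 took 55.9% (52.8 to 58.9%) and 25.0% (22.7 to 27.4%) in the Lgr6-positive libraries, so the replicates differed beyond counting error. In the Lgr6-negative libraries it took 2 of 5 counts and 0 of 20 (interval up to 16.8%), which is too few in the first to place the share. Among the plakophilins, Pkp1 took 83.5% and Pkp3 9.19% of the counts per kilobase in Lgr6-positive replicate 1, while Pkp1 took 38.6% and Pkp3 49.1% in replicate 2. In the Lgr6-negative libraries Pkp1 took 76.1% in replicate 1 and 0.902% in replicate 2, where Pkp3 took 94.0%. The leading plakophilin therefore varied between replicates of each population, with 38 and 164 plakophilin counts behind the Lgr6-negative values.

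**Figure D3:**
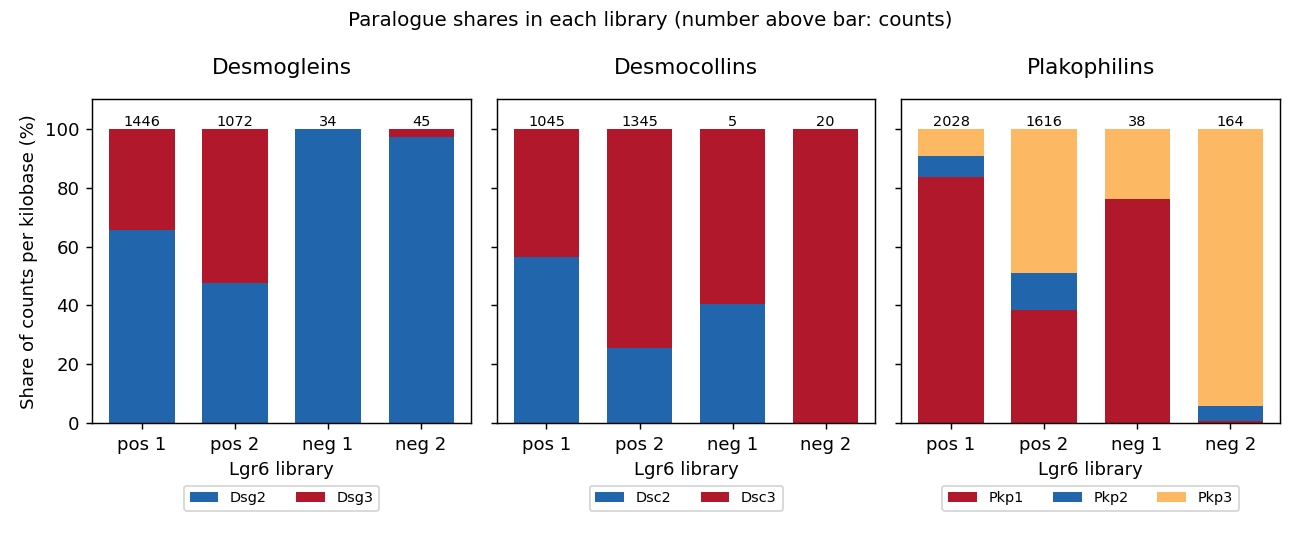
Share of counts per kilobase (vertical axis, percent) taken by each paralogue of the desmogleins, desmocollins and plakophilins in the 4 libraries (horizontal axis; pos, Lgr6-positive; neg, Lgr6-negative), with the counts behind each bar above it. Dsg3 takes 34.2% and 52.3% in the Lgr6-positive libraries and 0% and 2.62% in the Lgr6-negative libraries, while the plakophilin shares vary between replicates.

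The Lgr6-positive replicates also differed from each other gene by gene. Pkp1, Dsc2 and Dsg2 were higher in replicate 1, by 2.34, 1.68 and 1.75 times. The other 7 genes were higher in replicate 2, by 1.21 (Dsg3) to 4.95 times (Pkp3). The summed level of the simple-type cadherins Dsc2 and Dsg2 was 28.5 CPM per kilobase in replicate 1 and 16.6 in replicate 2, and that of the stratified-type Dsc3 and Dsg3 was 18.2 and 33.0. Over all 4 cadherins the replicates were close, at 46.7 and 49.6 CPM per kilobase.

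Desmosome genes were next set against general epithelial genes, Cdh1 (the cadherin of adherens junctions) and Epcam (an epithelial surface adhesion protein), which together were at 1057 and 1175 CPM in Lgr6-positive and 49.5 and 38.0 CPM in Lgr6-negative libraries. The summed CPM of the 10 desmosome genes was 1572 and 2322 in Lgr6-positive and 197 and 134 in Lgr6-negative libraries. Per unit of Cdh1 and Epcam this came to 1.49 and 1.98 against 3.98 and 3.52, a log2 difference of -1.13. The ratio was thus lower in both Lgr6-positive libraries than in either Lgr6-negative one, at an exact two-sided permutation p of 0.333, the smallest that 2 against 2 libraries can give. The difference was -0.94 against the sum of Krt8, Krt18, Krt5 and Krt14. Jup weighed heavily in the Lgr6-negative sums, at 115.8 and 55.8 CPM, where its Lgr6-positive levels were 290.1 and 404 CPM. Of the single genes, only Jup was lower in both Lgr6-positive libraries against all 4 references used, while Dsc2 and Dsg3 were higher. The difference therefore describes the sum and not each of the 10 genes.

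Single genes differed in this ratio. That of Jup was 0.274 and 0.344 in Lgr6-positive and 2.34 and 1.47 in Lgr6-negative libraries, with no overlap. That of Dsp was 0.572 and 1.05 against 1.18 and 0.818, with overlap (none against Epcam alone). The ratio of Dsg3 was 0.0512 and 0.0555 against 0 and 0.00467, and that of Dsc2 0.0677 and 0.0362 against 0.00631 and 0, so both stood higher in each Lgr6-positive library, although their Lgr6-negative values rest on 1 and 2 counts. Jup, Dsg3 and Dsc2 kept these sides under all 4 references used (Cdh1 and Epcam, each alone, and the keratins), and Dsc3, Pkp1, Pkp2 and Pkp3 overlapped under all 4. Whether Ppl and Dsg2 overlapped depended on the reference. The ratio of Ppl was 0.116 and 0.142 against 0.215 and 0.164, without overlap, but overlapped against Cdh1 alone (0.241 and 0.265 against 0.366 and 0.240) and against the keratins. The ratio of Dsg2 was 0.117 and 0.0601 against 0.107 and 0.206, with overlap, but was lower in both Lgr6-positive libraries against the keratins (0.0457 and 0.0280 against 0.0507 and 0.0610) and against Epcam alone.

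**Figure D4:**
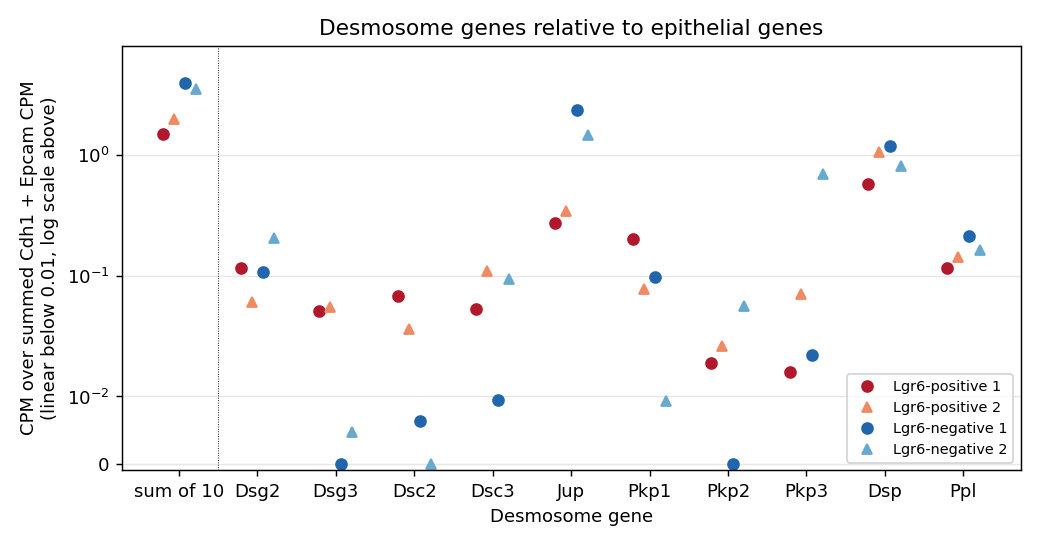
CPM of the 10 desmosome genes together (left of the dotted line) and singly, divided by the summed CPM of Cdh1 and Epcam in the same library, on a vertical axis that is linear below 0.01 and logarithmic above; symbols are the 4 libraries. The sum lies at 1.49 and 1.98 (Lgr6-positive) and at 3.98 and 3.52 (Lgr6-negative), Jup is lower and Dsg3 higher in both Lgr6-positive libraries, and Dsp overlaps.

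Other genes of the junction and its filaments were read from lists chosen with earlier results of these data known. Of 12 further desmosome and plakin genes, 8 were tested, 3 were higher and 5 did not pass (edgeR), at a median log2 fold change of 3.30. Among them, Dsg1a and Dsg1b had no Lgr6-negative counts and passed the filter through their Lgr6-positive libraries, so the median is a description. Of all tested genes, edgeR called 4.49% higher and DESeq2 12.3%. Perp, a membrane protein needed for desmosome assembly in skin, was at 548 and 639 CPM against 9.21 and 3.02 CPM (log2 fold change 6.59, SE 0.66, adjusted p = 9.32e-04). Dst and Plec, plakins of hemidesmosomes, were higher by 3.30 (SE 0.39, adjusted p = 0.00191) and 1.38 (SE 0.34, adjusted p = 0.0398). Macf1, a plakin that links actin and microtubules, overlapped between populations and did not pass (adjusted p = 0.671). Cdsn, which encodes the corneodesmosome protein corneodesmosin, had 153 counts in Lgr6-positive replicate 2 and none elsewhere. In DESeq2, 5 genes of this list were higher, and the edgeR count also rose without Lgr6-positive replicate 1.

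Epithelial keratins, the filaments that desmoplakin holds, were higher for 6 of 8 genes (median log2 fold change 4.60), led by Krt19 (5.09, SE 0.41), Krt18 (4.60, SE 0.40) and Krt14 (4.59, SE 0.42). Of 10 adherens junction genes, 4 were higher and 6 did not pass (median 1.75). They were Cdh1 (4.37, SE 0.44), the nectin gene Pvrl4 (7.40, SE 1.25), the alpha-catenin gene Ctnna1 (2.10, SE 0.46) and the afadin gene Mllt4 (2.67, SE 0.70, named after its value was seen). Ctnnb1, the beta-catenin gene and relative of Jup, was at 0.96 (adjusted p = 0.150) and was also named after its value was seen. Of 9 hemidesmosome genes, which anchor basal cells to the basement membrane, 5 were higher (median 2.92). Among them were Itgb4 (4.31, SE 0.82) and Itga6 (2.53, SE 0.51). The hemidesmosome count fell without Lgr6-negative replicate 1. All these values are from edgeR, with 4.49% of all tested genes called higher.

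Markers of differentiated keratinocytes were set beside the desmosome genes. Of 12 such markers, 6 were tested and 5 were higher (edgeR). The summed level of the 12 was 761 and 627 CPM in Lgr6-positive and 0.312 and 3.73 CPM in Lgr6-negative libraries. Each tested marker had fewer than 10 counts in at least 1 Lgr6-negative library. These markers passed the filter through their Lgr6-positive libraries, so this count is a description. Over all tested genes in the fits that kept all 4 libraries, edgeR called 4.49% higher and DESeq2 12.3%, beside which the counts in this paragraph stand. Krt10, a keratin of the upper skin layers, was at 153 and 181 CPM with no counts in Lgr6-negative libraries, and Krt1, its partner, at 198 and 108 CPM with 1 count in each. Lor and Lce1a1, defining markers of the cornified layer, had no counts in any library. Of 10 basal mammary markers, 3 were higher (Krt14, Krt5 and Trp63), with a summed level of 2125 and 2278 CPM against 262 and 246 CPM. That count was 7 in DESeq2. It also rose in some fits without a library, for which no share of all tested genes is given. Endothelial markers (5 of 8 higher) stood at 1483 and 1757 against 217 and 144 CPM. Fibroblast markers (2 of 8 higher, or 5 in DESeq2) stood at 768 and 464 against 31.8 and 71.6 CPM. Of the called fibroblast genes, Pdgfra had no Lgr6-negative counts and passed the filter through its Lgr6-positive libraries. The part of these cell types in the desmosome gene levels was not tested.

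The genes whose levels followed the mean profile of the 10 desmosome genes most closely were Selp, Zfp799, D17H6S56E-5, Plet1 and Acat2. Likeness was the root mean square difference of log2 CPM, centred on each gene's mean, over the 4 libraries, and ran from 0.111 (Selp) to 0.141 (Acat2). The desmosome genes themselves stood farther from their own mean, from 0.551 (Ppl) and 0.580 (Dsp) to 1.88 (Pkp3). Selp, which encodes an adhesion receptor of endothelium and platelets, was at 267 and 287 CPM against 7.49 and 11.6 CPM. Plet1 was at 580 and 643 CPM against 21.5 and 23.5 CPM. Zfp799 had 4 and 7 Lgr6-negative counts and Acat2 had 7 and 7, and neither was called (edgeR adjusted p = 0.0705 and 0.0693).

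**Figure D5:**
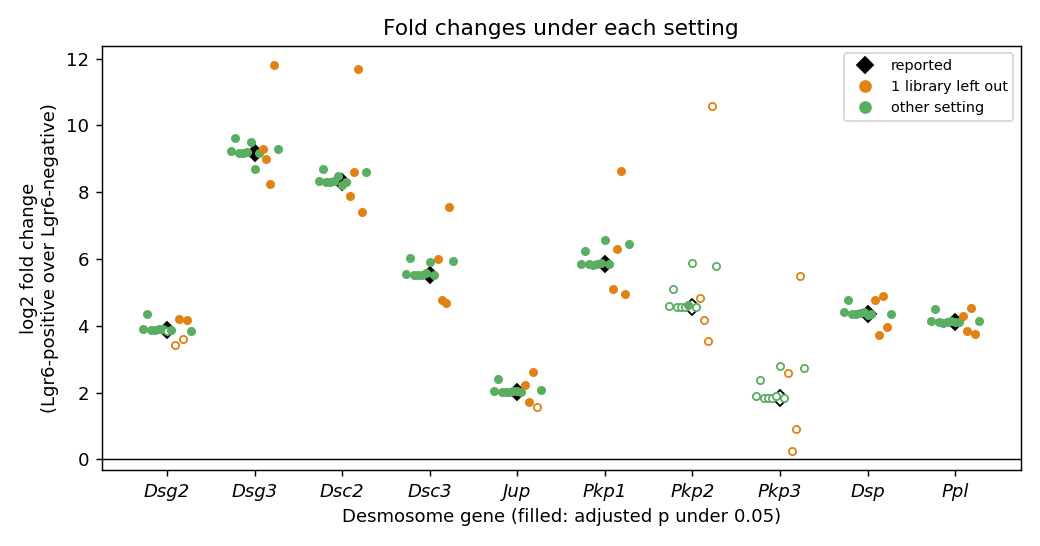
Log2 fold change of each desmosome gene (vertical axis) in the reported test (black diamonds), with 1 library left out (orange) and under the other settings (green); filled symbols passed the adjusted p threshold and open ones did not. Dsp and Ppl stay within 3.73 to 4.88 and 3.75 to 4.52, while Pkp3 runs from 0.25 to 5.49 and is open throughout; values above 10 come from fits whose Lgr6-negative library had no counts of the gene, and are no bounds.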

How the data were processed

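The deposited table gives expected counts, unscaled for depth or length per the file headers, for 4 libraries. Per the submitters' processing notes, STAR 2.4.2a, RSEM 1.2.22 and mm10 were used. Which annotation and strand setting served is not given in the sources used here. Fractional values (3.36% to 4.86% a library) were rounded.

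Testing used edgeR 4.0.16 under R 4.3.3 (TMM scaling, filterByExpr with minimum count 10 and minimum total 15, glmQLFit and glmQLFTest, group as the only factor). Benjamini-Hochberg adjustment ran over all 11661 tested genes. Each SE was obtained by dividing the size of the log2 fold change by the root of its F statistic. The steps were tested on simulated data. Alternatives used DESeq2 1.42.0 and limma 3.58.1 (voom), among others. Positions and lengths came from GENCODE M21 (GRCm38, also called mm10). Replicates were not identical (chi-square per degree of freedom 100.9 and 86.4). Log2 CPM for likeness used a prior count of 2.

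The desmosome genes and all lists were chosen with earlier results of these data known. All 10 desmosome genes are named. From each other list, up to 3 called genes with the smallest p-values were named, then Cdh1, Epcam, Ptprc and Lgr6, and the 5 genes most like the mean profile, passing over ribosomal protein genes and numbered gene models. Other genes on the lists were named after their values were seen.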

Additional observations from a re-analysis of the deposited data

How the results depend on the processing

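Of 13 alternative settings, 9 kept all 4 libraries, and in these between 7 and 9 of the 10 desmosome genes were higher and 0 were lower. The count was 7 in limma-voom and 9 in DESeq2, where 6.47% and 12.3% of all tested genes were higher. It was 8 in the reported fit, where 4.49% were. For the other settings no share of all tested genes is given, so their counts are descriptions. Dsp, Ppl, Pkp1, Jup, Dsc2, Dsc3 and Dsg3 were called in each of the 9 settings that kept all 4 libraries. In the other 4, the population left with 1 library is assumed to vary like the other population's pair, so calls there are no measure of stability. The calls of Jup and Dsg2 ended in some of these 4. No direction reversed. With library sizes alone as the scale, the median log2 fold change of all genes moved up by 0.45, which changed no call of these genes. Same-numbered libraries did not deviate together (correlation -0.0202), so the numbers are not taken as pairs, and with the replicate block 8 genes were higher, as without it. The ratio of the summed 10 genes to Cdh1 and Epcam had a log2 difference of -1.13. This difference was -0.81 against Cdh1 alone and -1.56 against Epcam alone, and ran from -1.33 to -0.92 without single libraries. Jup weighed heavily in the Lgr6-negative sums. Depth limits Dsc2, Dsg3 and Pkp2 in Lgr6-negative cells, where they had between 0 and 12 counts a library. It also limits Pkp1 (2 counts in Lgr6-negative replicate 2), Dsc3 (3 in Lgr6-negative replicate 1) and Pkp3 (7 in Lgr6-negative replicate 1). The cause of these changes was not tested.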
